A study of Mus musculus with 12 samples.

Results

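The genes of the synaptic vesicle release machinery described here are 31 named members: SNARE proteins and their partners, calcium sensors, priming factors, active zone scaffolds, vesicle membrane proteins and endocytic proteins of the nerve terminal. They were found by symbol among the 25749 genes of the expression tables. All 31 were present in all 12 libraries and passed the filter on low counts, which kept 14771 genes.

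Each library was made from the brain of a different mouse, 12 in all, which were males of the B6 strain at 13 weeks of age. B6 is an inbred strain, no allele or transgene is named in the labels, and the labels call the mice biological replicates. There were 4 uninjured mice, 4 injured mice, and 4 injured mice that received antibodies against the leukocyte integrins LFA1 and VLA4 continuously (αLFA1/VLA4, here called antibody-treated). The injury was cerebrovascular according to the title of the series. Tissue was taken on day 20 as a frozen cube with edges of 3 mm after saline perfusion, and libraries were made with a strand-preserving kit from 500 ng of total RNA. The extraction protocol describes the cube as injured tissue for all 3 groups, so the site of the cube in uninjured mice is not known. No dose, control antibody or brain region is named.

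Transmitter release begins when a vesicle docks at the active zone and SNARE proteins of vesicle and plasma membrane zip together. Synaptotagmins sense the calcium that enters with an action potential, complexins hold the assembled SNAREs ready, and Munc13 and CAPS proteins prime the vesicle. After fusion, NSF and SNAP adaptors take the SNARE complex apart, and dynamin, amphiphysin, endophilin and synaptojanin retrieve the membrane. The members are neuronal genes, so in bulk tissue fewer neurons or terminals and less RNA per neuron cannot be told apart.

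Exon reads per library ranged from 13330379 to 16121577, lowest in the antibody-treated group. Each member had at least 440 reads and at most 46735 reads in every library, and at least 98.5% of its reads were unique. The mitochondrial share of these reads was 11.4 ± 0.761% for uninjured, 6.84 ± 1.51% for injured and 10.04 ± 0.945% for antibody-treated mice (SD, n = 4). Uninjured replicate 1 and antibody-treated replicate 4 were the extremes of principal component 1, which held 38.3% of the variance. Among the members, uninjured replicate 1 was the highest uninjured library for 20 of 31 genes, antibody-treated replicate 4 the lowest of its group for 22 and antibody-treated replicate 3 the highest for 18. Pan-neuronal marker genes summed to between 6245 and 6306 CPM in uninjured, 6432 and 6712 in injured and 6041 and 6369 in antibody-treated libraries, and no marker was at 0.

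Levels between genes were compared per transcript length, as TPM, a unit that corrects for exon length and depth. In uninjured tissue Snap25 led with 3248 ± 151 TPM (SD, n = 4), followed by Syp at 1299 ± 73.2, Vamp2 at 911 ± 24.2, Syt1 at 757 ± 88.9 and Slc17a7 at 747 ± 49.6. The spreads of Syt1, Slc17a7, Rab3a at 731 ± 27.7 and Cplx1 at 706 ± 26.6 overlapped. The lowest members were Doc2a at 32.6 ± 2.48, Syt2 at 25.2 ± 2.93 and Pclo at 22.4 ± 6.16 TPM. The RNA levels of the members therefore ran from Snap25 and Syp down to Doc2a, Syt2 and Pclo. They were not ordered by role, since the SNARE genes Stx1a and Vamp1 stood at 263 ± 14.2 and 91.4 ± 1.59 TPM. Within groups the coefficient of variation of the members had a median of 6.21% for uninjured, 5.91% for injured and 8.42% for antibody-treated mice, and Pclo varied most in each group.

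Comparisons between groups used normalised CPM, which is the count over a gene's exons relative to the scaled library size. A gene is said to have risen or fallen where its edgeR adjusted p, over all 14771 genes, was under 0.05. In injured against uninjured tissue 3 of the 31 members rose (Vamp1, Dnm1 and Syngr1) and 7 fell (Syt1, Snap25, Sv2b, Rims1, Napb, Sh3gl2 and Erc2). Over all tested genes 11.9% rose and 11.0% fell, and the median log2 fold change was -0.00 for the members and 0.03 for all genes. In antibody-treated against uninjured tissue no member rose and 8 fell (Syn1, Sv2b, Unc13a, Rims1, Dnm1, Slc17a7, Syngr1 and Rph3a), where 6.30% of all genes rose and 3.22% fell. In either direction 17 members had an unadjusted edgeR p under 0.05 there. The share of all genes under that p is not given here, so the count has no background beside it. DESeq2 and limma voom also called none higher. The members' median there was -0.18, against 0.01 for all genes, and 28 of 31 had a log2 fold change below 0. In antibody-treated against injured tissue 2 members rose (Snap25 and Sh3gl2) and 13 fell (Syt2, Stx1a, Vamp1, Syn1, Syp, Cplx1, Unc13a, Dnm1, Amph, Slc17a7, Doc2a, Syngr1 and Rph3a), where 10.9% of all genes rose and 10.7% fell. The median was -0.12 for the members and 0.01 for all genes. Every pair of comparisons shares a group of libraries, so the 3 comparisons are not independent.

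**Figure D1:**
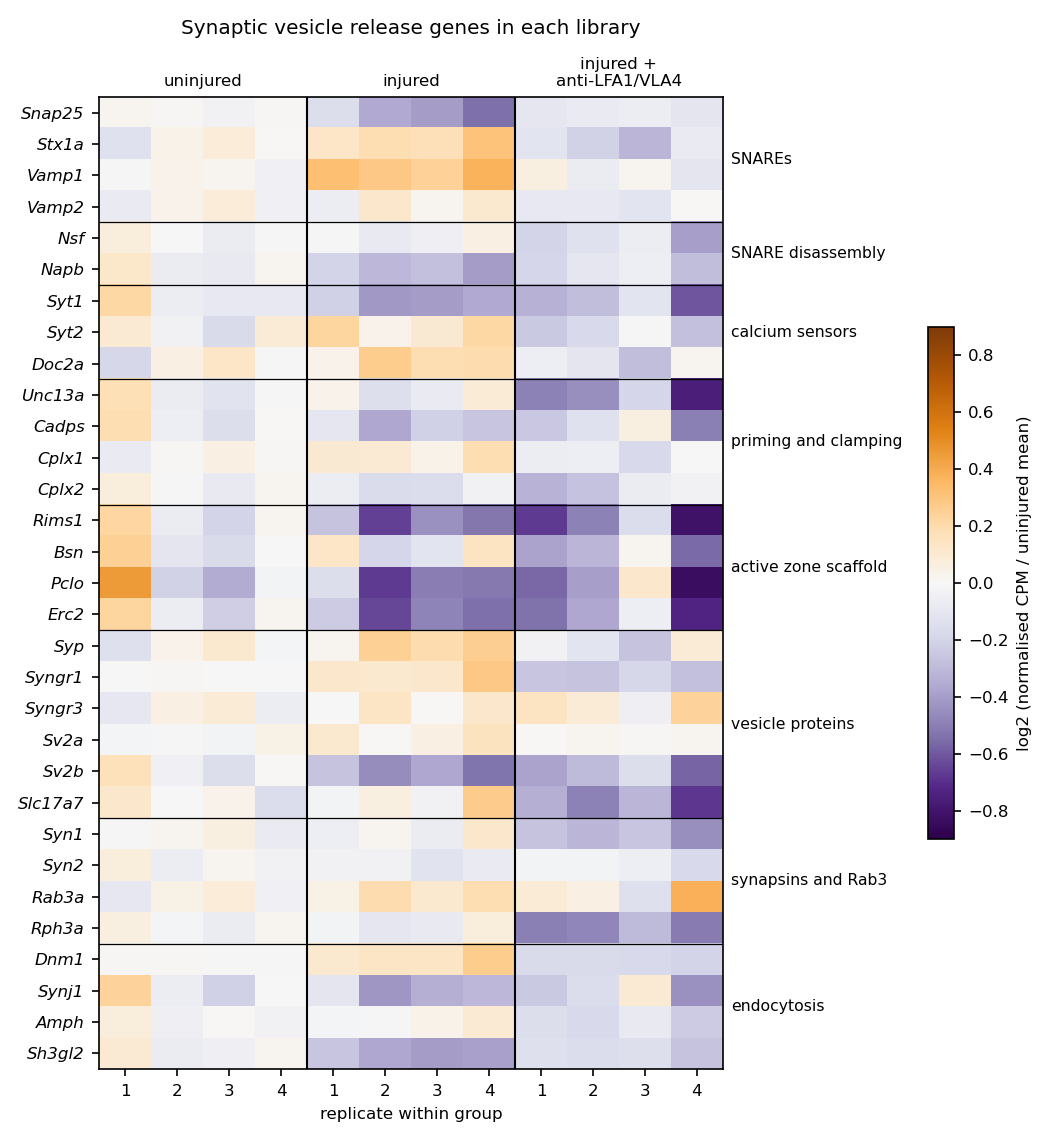
Level of each of the 31 genes (rows, by role) in each of the 12 libraries (columns) as the log2 ratio of its normalised CPM to the mean of the 4 uninjured libraries, with orange above and purple below that mean. Purple cells fill most of the antibody-treated columns for Unc13a, Slc17a7, Syn1, Syngr1 and Rph3a, and Vamp1 is orange in all 4 injured libraries.

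The sum of all members lay between 18691 and 19729 normalised CPM in uninjured, 17592 and 18462 in injured and 16351 and 17470 in antibody-treated libraries. The 3 groups did not overlap in this sum. Without Snap25, the most abundant member, it lay between 15720.0 and 16665 in uninjured, 15297 and 16383 in injured and 13545 and 14561 in antibody-treated libraries. The antibody-treated libraries then still overlapped neither other group, while the uninjured and injured libraries overlapped. In TPM the sum over all members overlapped, with 12744 to 13659 for uninjured, 13212 to 15429 for injured and 11443 to 13137 for antibody-treated libraries, the last below all injured ones only. Summed markers of cortical excitatory neurons lay between 2695 and 2968 CPM in uninjured, 2775 and 3108 in injured and 2331 and 2727 in antibody-treated libraries. Of these 12 markers 4 fell and 2 rose in injured against uninjured tissue, where 11.0% of all genes fell and 11.9% rose. In antibody-treated against uninjured tissue 3 fell and none rose, beside 3.22% and 6.30% of all genes. Against injured tissue 2 fell and none rose, beside 10.7% and 10.9% of all genes. Summed markers of meningeal fibroblasts were 118 to 127 CPM in uninjured, 137.5 to 153 in injured and 426 to 477 in antibody-treated libraries, and those of microglia and macrophages 406 to 449, 567 to 648 and 704 to 907 CPM. All 6 choroid plexus markers and 6 of 7 skeletal muscle markers rose in antibody-treated against injured tissue. Summed striatal markers were 1498 to 1582 CPM in uninjured, 1223 to 1249 in injured and 1315 to 1433 in antibody-treated libraries, and thalamic markers 208 to 253, 282.5 to 303 and 277 to 320 CPM. The part of these tissue differences in the results for the members was not tested.

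Among the SNAREs, Snap25, the plasma membrane SNARE that is cleaved by several botulinum toxins, had its lowest normalised CPM in injured tissue. Snap25 stood at 3065, 3046, 2964 and 3049 normalised CPM in the uninjured libraries, 2723, 2356, 2296 and 2079.5 in the injured and 2827, 2874, 2909 and 2806 in the antibody-treated libraries. All 4 injured libraries lay below all others, and the antibody-treated libraries lay below the uninjured ones, a difference that did not pass the test (log2 fold change -0.09, SE 0.07, edgeR adjusted p = 0.425). Snap25 fell 1.28-fold in injured against uninjured tissue (log2 fold change -0.36, SE 0.07, edgeR adjusted p = 0.00573) and rose 1.21-fold in antibody-treated against injured tissue (log2 fold change 0.27, SE 0.07, edgeR adjusted p = 0.0149). Its transcript has a GC content of 38.7%, the lowest of the members, and both calls ended when each library's trend on GC content and length was removed. The log2 fold changes were then -0.05 (edgeR adjusted p = 0.532) and -0.14 (edgeR adjusted p = 0.0572), the second with its direction turned. Antibody-treated against uninjured tissue then passed the test as lower (log2 fold change -0.19, edgeR adjusted p = 0.0125).

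Vamp1, a vesicle SNARE used mostly by fast-firing and caudal brain circuits, showed the reverse. Vamp1 stood at 155, 159.8, 159 and 152 normalised CPM in the uninjured libraries, 196, 191, 185 and 203 in the injured and 164, 149, 159 and 145 in the antibody-treated libraries. Every injured library lay above every other library, and the uninjured and antibody-treated libraries overlapped. Vamp1 rose 1.24-fold in injured tissue (log2 fold change 0.31, SE 0.06, edgeR adjusted p = 0.00433) and fell 1.26-fold in antibody-treated against injured tissue (log2 fold change -0.33, SE 0.06, edgeR adjusted p = 0.00167). Both calls held without any single library of the groups compared and after removing the GC and length trend (log2 fold changes 0.39 and -0.39). Stx1a, the plasma membrane partner of Snap25, stood at 226, 254, 261 and 247 normalised CPM in the uninjured libraries, 269.8, 281, 278 and 305 in the injured and 228, 213, 199 and 235 in the antibody-treated libraries. The injured libraries were the highest. Stx1a fell 1.296-fold in antibody-treated against injured tissue (log2 fold change -0.37, SE 0.07, edgeR adjusted p = 0.00282), without overlap (with the GC and length trend removed -0.21, over 1.5 times smaller), and did not pass the test in injured against uninjured tissue (log2 fold change 0.20, SE 0.07, edgeR adjusted p = 0.0529). Vamp2, the main vesicle SNARE of the forebrain, lay between 992 and 1165 normalised CPM in all libraries, with log2 fold changes of 0.05, -0.07 and -0.12 (edgeR adjusted p = 0.568, 0.424 and 0.157) in injured against uninjured, antibody-treated against uninjured and antibody-treated against injured tissue.

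Of the factors that disassemble SNARE complexes, Napb, the brain form of the SNAP adaptor, fell in injured tissue. Napb stood at 594, 520.0, 514 and 552 normalised CPM in the uninjured libraries, 474, 442, 451 and 413 in the injured and 477, 508, 526 and 448 in the antibody-treated libraries. The injured libraries lay below all uninjured libraries, with the antibody-treated libraries between them and overlapping both. Napb fell 1.23-fold (log2 fold change -0.29, SE 0.07, edgeR adjusted p = 0.0131), and the call held without any single library of the groups compared. With the GC and length trend removed the log2 fold change was smaller, at -0.11 (edgeR adjusted p = 0.0227). The ATPase gene Nsf lay between 653 and 908 normalised CPM, with log2 fold changes of -0.02, -0.19 and -0.17 (edgeR adjusted p = 0.852, 0.0985 and 0.0922) in the 3 comparisons in the same order.

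The calcium sensors did not move together. Syt1, the main sensor for fast release in forebrain neurons, fell in injured tissue. Syt1 stood at 1771, 1462, 1434 and 1433 normalised CPM in the uninjured libraries, 1317, 1140.5, 1152 and 1189 in the injured and 1208, 1249, 1405 and 999 in the antibody-treated libraries. Uninjured replicate 1 was the highest library and antibody-treated replicate 4 the lowest, and the injured libraries lay below all uninjured ones. Syt1 fell 1.27-fold in injured tissue (log2 fold change -0.35, SE 0.10, edgeR adjusted p = 0.02798), and the call was lost without uninjured replicate 1 or injured replicates 2, 3 or 4 (largest edgeR adjusted p = 0.0924, log2 fold changes -0.42 to -0.27). With the trend removed it held at -0.21, over 1.5 times smaller. The log2 fold change of antibody-treated against uninjured tissue was of a like size without passing the test (log2 fold change -0.33, SE 0.10, edgeR adjusted p = 0.0573).

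Syt2, a faster sensor typical of interneurons and caudal brain regions, stood at 81.3, 74.8, 67.7 and 81.2 normalised CPM in the uninjured libraries, 89.3, 77.8, 81.7 and 88.4 in the injured and 64.6, 67.3, 75.8 and 62.97 in the antibody-treated libraries. The antibody-treated libraries lay below all injured libraries. Syt2 fell 1.25-fold between these groups (log2 fold change -0.32, SE 0.08, edgeR adjusted p = 0.0142), a call that was lost without injured replicate 4 or antibody-treated replicate 2 (largest edgeR adjusted p = 0.0597, log2 fold changes -0.36 to -0.27). Doc2a, a calcium sensor linked to asynchronous and spontaneous release, was the weakest member in reads. It stood at 33.6, 39.6, 41.8 and 37.9 normalised CPM in the uninjured libraries, 39.2, 45.9, 43.6 and 43.7 in the injured and 36.9, 35.4, 31.4 and 38.9 in the antibody-treated libraries. Doc2a fell 1.21-fold in antibody-treated against injured tissue (log2 fold change -0.27, SE 0.09, edgeR adjusted p = 0.0382), without overlap. The call was lost without injured replicates 2, 3 or 4 or antibody-treated replicates 1, 2 or 3 (largest edgeR adjusted p = 0.102, log2 fold changes -0.32 to -0.20), and after removing the GC and length trend (log2 fold change -0.01, edgeR adjusted p = 0.875). Doc2a overlaps the gene Ino80e on the map, and the sources used here do not say whether counting used the strand.

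Among priming and clamping factors Unc13a, which encodes Munc13-1, the priming factor that most glutamate synapses depend on, fell in antibody-treated tissue. Unc13a stood at 393, 332, 319 and 344 normalised CPM in the uninjured libraries, 354, 314, 329.9 and 369 in the injured and 247, 255, 304 and 205 in the antibody-treated libraries. Every antibody-treated library lay below every uninjured and injured library. Unc13a fell 1.37-fold against uninjured tissue (log2 fold change -0.46, SE 0.11, edgeR adjusted p = 0.0155) and 1.35-fold against injured tissue (log2 fold change -0.43, SE 0.11, edgeR adjusted p = 0.0117). The first call was lost without uninjured replicate 1 or antibody-treated replicate 1 (largest edgeR adjusted p = 0.0519, log2 fold changes -0.56 to -0.37), and the second without injured replicate 4 (largest edgeR adjusted p = 0.0504, log2 fold changes -0.52 to -0.35). With the GC and length trend removed both calls held, at -0.30 and -0.24, both over 1.5 times smaller.

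Cplx1, a complexin that binds the assembled SNARE complex, stood at 614, 650.1, 669 and 649.9 normalised CPM in the uninjured libraries, 693, 689, 662 and 736 in the injured and 619, 622, 569 and 644 in the antibody-treated libraries. Antibody-treated libraries lay just below injured libraries. Cplx1 fell 1.13-fold between them (log2 fold change -0.18, SE 0.06, edgeR adjusted p = 0.03898), but the call was lost without any 1 of 7 of the 8 libraries compared, all but antibody-treated replicate 4 (largest edgeR adjusted p = 0.134, log2 fold changes -0.20 to -0.13), and after removing the GC and length trend (log2 fold change -0.07, edgeR adjusted p = 0.358). Its relative Cplx2 lay between 955 and 1262 normalised CPM, with log2 fold changes of -0.10, -0.17 and -0.07 (edgeR adjusted p = 0.306, 0.158 and 0.548). Cadps, which encodes the priming factor CAPS1, lay between 180.4 and 289.6 normalised CPM, with log2 fold changes of -0.24, -0.19 and 0.05 (edgeR adjusted p = 0.124, 0.269 and 0.802). Neither gene passed the test in any comparison.

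All 4 active zone scaffold genes had log2 fold changes below 0 in both comparisons with uninjured tissue, though that of Bsn in injured tissue rounds to 0, and 2 passed the test in injured and 1 in antibody-treated tissue. Rims1, which encodes the RIM1 protein that links Munc13, Rab3 and calcium channels, stood at 266, 218, 199 and 231 normalised CPM in the uninjured libraries, 190.3, 145, 168 and 159 in the injured and 144, 163, 205 and 130.5 in the antibody-treated libraries. The injured libraries lay below all uninjured libraries, and antibody-treated replicate 3 overlapped the uninjured group. Rims1 fell 1.38-fold in injured tissue (log2 fold change -0.47, SE 0.13, edgeR adjusted p = 0.0267) and 1.42-fold in antibody-treated tissue (log2 fold change -0.51, SE 0.13, edgeR adjusted p = 0.0302), both against uninjured tissue. The first call was lost without uninjured replicates 1 or 4 or injured replicates 2, 3 or 4 (largest edgeR adjusted p = 0.0869, log2 fold changes -0.57 to -0.38), and the second without uninjured replicates 1, 2 or 4 or antibody-treated replicates 1, 2 or 4 (largest edgeR adjusted p = 0.0959, log2 fold changes -0.65 to -0.42).

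Erc2, which encodes the scaffold ELKS2/CAST, stood at 185, 151, 136 and 161 normalised CPM in the uninjured libraries, 134, 101, 113 and 108 in the injured and 109, 122, 152 and 95.02 in the antibody-treated libraries. Its injured libraries lay below all uninjured libraries. Erc2 fell 1.38-fold in injured tissue (log2 fold change -0.47, SE 0.14, edgeR adjusted p = 0.0296), a call that was lost without uninjured replicates 1 or 4 or injured replicates 2, 3 or 4 (largest edgeR adjusted p = 0.0947, log2 fold changes -0.58 to -0.38) and that held at -0.29, over 1.5 times smaller, with the trend removed. It did not pass the test in antibody-treated against uninjured tissue (log2 fold change -0.40, SE 0.14, edgeR adjusted p = 0.0849). Pclo, the giant scaffold Piccolo, stood at 283, 179, 161 and 202 normalised CPM in the uninjured libraries, 186, 129, 145 and 144 in the injured and 139, 156, 223 and 116 in the antibody-treated libraries. Uninjured replicate 1 stood far above the other uninjured libraries, the groups overlapped, and no comparison passed the test, with log2 fold changes of -0.45, -0.38 and 0.07 (edgeR adjusted p = 0.118, 0.243 and 0.839). With the trend removed Pclo was called lower in injured (-0.19, edgeR adjusted p = 0.0312) and antibody-treated tissue (-0.22, edgeR adjusted p = 0.0104), both against uninjured tissue. Bsn, the related scaffold Bassoon, lay between 231 and 406 normalised CPM with log2 fold changes of -0.00, -0.29 and -0.29 (edgeR adjusted p = 0.998, 0.161 and 0.116).

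Among vesicle membrane proteins Slc17a7, which encodes VGLUT1, the transporter that fills vesicles of cortical and hippocampal excitatory neurons with glutamate, fell in antibody-treated tissue. Slc17a7 stood at 1012, 931, 954 and 838 normalised CPM in the uninjured libraries, 916, 971, 912 and 1128 in the injured and 737, 664, 750.2 and 583 in the antibody-treated libraries. All 4 antibody-treated libraries lay below all 8 other libraries, and the uninjured and injured groups overlapped. Slc17a7 fell 1.37-fold against uninjured tissue (log2 fold change -0.45, SE 0.09, edgeR adjusted p = 0.00869) and 1.44-fold against injured tissue (log2 fold change -0.52, SE 0.09, edgeR adjusted p = 0.00243). Both calls held without any single library of the groups compared and after removing the GC and length trend (-0.52 and -0.35).

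Syngr1, the neuronal synaptogyrin, stood at 537, 541, 535 and 535 normalised CPM in the uninjured libraries, 583, 579, 581 and 653 in the injured and 449.8, 448, 472 and 442 in the antibody-treated libraries. The 3 groups did not overlap, with injured libraries highest and antibody-treated libraries lowest. Syngr1 fell 1.19-fold in antibody-treated against uninjured tissue (log2 fold change -0.25, SE 0.05, edgeR adjusted p = 0.0109) and 1.32-fold against injured tissue (log2 fold change -0.40, SE 0.05, edgeR adjusted p = 0.000338), and both calls held without any single library and with the trend removed (-0.21 and -0.19, the second over 1.5 times smaller). The rise in injured tissue (log2 fold change 0.16, SE 0.05, edgeR adjusted p = 0.0482) was lost without any 1 of the 8 libraries compared (largest edgeR adjusted p = 0.189, log2 fold changes 0.10 to 0.17). With the trend removed that value was -0.02 (edgeR adjusted p = 0.6602). Syngr1 overlaps Rpl3 on the map, a ribosomal protein gene that did not pass the test in any comparison, and reads of the 2 genes may be shared if strand was not used.

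Sv2b, a vesicle glycoprotein most abundant in excitatory terminals, stood at 596, 517, 478 and 531 normalised CPM in the uninjured libraries, 442, 387, 411 and 366 in the injured and 407, 432, 478 and 356 in the antibody-treated libraries. Its injured libraries lay below all uninjured libraries, as did its antibody-treated libraries, although antibody-treated replicate 3 and uninjured replicate 3 were almost equal. Sv2b fell 1.32-fold in injured tissue (log2 fold change -0.40, SE 0.09, edgeR adjusted p = 0.0128), and this call held without any single library of the groups compared and with the trend removed (-0.26, over 1.5 times smaller). It also fell 1.27-fold in antibody-treated against uninjured tissue (log2 fold change -0.34, SE 0.09, edgeR adjusted p = 0.0366), a call that was lost without uninjured replicates 1, 2 or 4 or antibody-treated replicates 1, 2 or 4 (largest edgeR adjusted p = 0.115, log2 fold changes -0.42 to -0.27).

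Syp, the vesicle protein synaptophysin that is widely used as a marker of terminals, stood at 1330.5, 1495, 1581 and 1448 normalised CPM in the uninjured libraries, 1492, 1744, 1674 and 1752 in the injured and 1433, 1353, 1218 and 1558 in the antibody-treated libraries. The 3 highest libraries were injured ones, and antibody-treated replicate 4 lay above injured replicate 1, so all groups overlapped. Syp fell 1.198-fold in antibody-treated against injured tissue (log2 fold change -0.26, SE 0.08, edgeR adjusted p = 0.0389). The call was lost without injured replicates 2, 3 or 4 or antibody-treated replicates 1, 2 or 3 (largest edgeR adjusted p = 0.117, log2 fold changes -0.32 to -0.19); with the GC and length trend removed it held at a log2 fold change of -0.41, over 1.5 times larger. Sv2a, the vesicle protein bound by the drug levetiracetam, lay between 489.6 and 552 normalised CPM with log2 fold changes of 0.08, 0.01 and -0.07 (edgeR adjusted p = 0.223, 0.878 and 0.331). Syngr3 lay between 140.3 and 176 normalised CPM with log2 fold changes of 0.06, 0.11 and 0.04 (edgeR adjusted p = 0.517, 0.329 and 0.703). Neither passed the test.

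Syn1 and Rph3a fell in antibody-treated tissue, and their promoter sequences are shown because among the 27 members searched only they match a part of the RE1 element, the site of the neuronal repressor REST. The 250 bases before the RefSeq start (GRCm38.p6) were searched on both strands in 27025 genes, of which 27 are members. Snap25, Vamp2, Syngr3 and Doc2a are not in the sequence table. The part TTCAGCACC was present in 0.348% of genes and the part GGACAGC in 6.14%. The cyclic AMP response element TGACGTCA was present in 1.77% of genes, with Syn1 and Sh3gl2 among the members, and its core TGACG, which lies inside that element, in 19.8% of genes and in 7 members. The sequences run 5′ to 3′ on the gene's strand, capitals mark the matches, and bases that GENCODE annotates as exon are left out.
Syn1, chrX:20921005-20921168, minus strand: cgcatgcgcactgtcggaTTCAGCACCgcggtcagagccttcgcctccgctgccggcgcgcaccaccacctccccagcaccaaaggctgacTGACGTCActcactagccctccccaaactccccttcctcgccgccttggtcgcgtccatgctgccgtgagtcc
Rph3a, chr5:121009539-121009788, minus strand: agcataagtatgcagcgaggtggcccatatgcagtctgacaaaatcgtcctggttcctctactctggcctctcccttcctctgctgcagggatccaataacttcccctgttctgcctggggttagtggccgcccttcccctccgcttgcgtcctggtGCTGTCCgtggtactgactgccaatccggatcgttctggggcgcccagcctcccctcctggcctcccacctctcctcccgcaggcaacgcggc
In Syn1 the capitals mark TTCAGCACC, from 232 to 224 bases before the start, and TGACGTCA, from 159 to 152 bases before it. In Rph3a they mark GGACAGC read on the opposite strand, from 93 to 87 bases before the RefSeq start, a stretch that lies inside an intron of a longer GENCODE transcript. These matches are letters in a window and say nothing of binding.

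Syn1, which encodes synapsin I, the phosphoprotein that tethers reserve vesicles, stood at 524, 535, 552 and 503 normalised CPM in the uninjured libraries, 510.3, 538, 505 and 574 in the injured and 439.6, 426, 442 and 388 in the antibody-treated libraries. The antibody-treated libraries lay below all 8 others, which overlapped among themselves. Syn1 fell 1.25-fold against uninjured tissue (log2 fold change -0.32, SE 0.06, edgeR adjusted p = 0.00551) and 1.25-fold against injured tissue (log2 fold change -0.33, SE 0.06, edgeR adjusted p = 0.00311), and both calls held without any single library of the groups compared. With the GC and length trend removed the first held (-0.36) and the second was lost (-0.11, edgeR adjusted p = 0.167). Timp1, a matrix protease inhibitor gene that lies within the bounds of Syn1 on the other strand, was at 0.682 ± 0.138 normalised CPM for uninjured, 1.32 ± 0.250 for injured and 2.99 ± 0.986 for antibody-treated mice (SD, n = 4), far under the level of Syn1.

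Rph3a, which encodes rabphilin, an effector of Rab3, stood at 466, 442, 428 and 453 normalised CPM in the uninjured libraries, 439.7, 416, 423 and 470.5 in the injured and 317, 322, 364 and 314 in the antibody-treated libraries. Antibody-treated libraries again lay below all 8 others, with antibody-treated replicate 3 the highest of its group. Rph3a fell 1.36-fold against uninjured tissue (log2 fold change -0.44, SE 0.06, edgeR adjusted p = 0.000585) and 1.33-fold against injured tissue (log2 fold change -0.41, SE 0.06, edgeR adjusted p = 0.000938). Both calls held without any single library and with the trend removed (-0.42 and -0.23, the second over 1.5 times smaller). Syn2, which encodes synapsin II, lay between 429 and 509 normalised CPM with log2 fold changes of -0.06, -0.07 and -0.01 (edgeR adjusted p = 0.399, 0.419 and 0.961). Rab3a, the vesicle GTPase that rabphilin and RIM bind, lay between 497 and 712 normalised CPM with log2 fold changes of 0.14, 0.11 and -0.03 (edgeR adjusted p = 0.279, 0.452 and 0.852). Neither passed the test in any comparison.

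**Figure D2:**
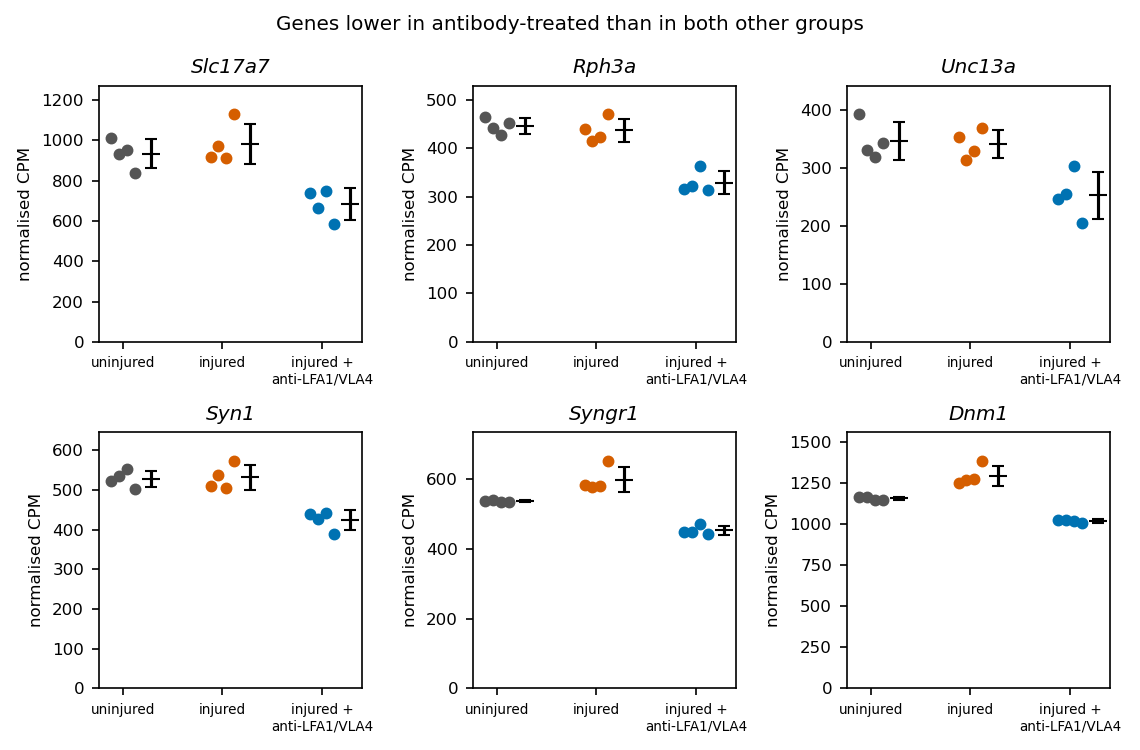
Normalised CPM of Slc17a7, Rph3a, Unc13a, Syn1, Syngr1 and Dnm1 in each library (points) by group, with the mean and SD of 4 libraries (bars) and axes that start at 0. Antibody-treated points lie below all points of both other groups in each panel, and Dnm1 and Syngr1 are highest in injured libraries.

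Of the endocytic genes, Dnm1, the neuronal dynamin that pinches vesicles from the membrane, stood at 1165, 1162, 1145 and 1147 normalised CPM in the uninjured libraries, 1246, 1268, 1273 and 1383 in the injured and 1026, 1023, 1019 and 1004 in the antibody-treated libraries. The 3 groups did not overlap, and the spread within the uninjured and antibody-treated groups was small. Dnm1 fell 1.27-fold in antibody-treated against injured tissue (log2 fold change -0.34, SE 0.05, edgeR adjusted p = 0.000533). This call held without any single library and with the trend removed, at a value over 1.5 times smaller (-0.11). The rise in injured tissue (log2 fold change 0.16, SE 0.05, edgeR adjusted p = 0.0308) was lost without any 1 of 7 of the 8 libraries compared, all but injured replicate 1 (largest edgeR adjusted p = 0.1095, log2 fold changes 0.11 to 0.17). With the trend removed it was -0.03 (edgeR adjusted p = 0.632). The fall in antibody-treated against uninjured tissue (log2 fold change -0.18, SE 0.05, edgeR adjusted p = 0.0327) was lost without any 1 of 7 of the 8 libraries compared, all but antibody-treated replicate 3 (largest edgeR adjusted p = 0.0841, log2 fold changes -0.19 to -0.18).

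Sh3gl2, which encodes endophilin A1, a curved protein that recruits dynamin and synaptojanin, stood at 306, 273, 278 and 289.7 normalised CPM in the uninjured libraries, 241, 222, 217 and 219 in the injured and 261, 256, 259.8 and 239 in the antibody-treated libraries. The injured libraries lay below all uninjured libraries, and antibody-treated libraries lay between, with an overlap of antibody-treated replicate 4 and injured replicate 1. Sh3gl2 fell 1.28-fold in injured tissue (log2 fold change -0.35, SE 0.06, edgeR adjusted p = 0.002896), a call that held without any single library and was lost with the trend removed (-0.07, edgeR adjusted p = 0.521). It rose in antibody-treated against injured tissue (log2 fold change 0.18, SE 0.06, edgeR adjusted p = 0.04496), a call that was lost without injured replicates 2, 3 or 4 or antibody-treated replicates 1, 2 or 3 (largest edgeR adjusted p = 0.1099, log2 fold changes 0.16 to 0.23), and with the trend removed (0.02, edgeR adjusted p = 0.892).

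Amph, which encodes amphiphysin, stood at 209, 192, 198 and 194 normalised CPM in the uninjured libraries, 196, 197, 204 and 212 in the injured and 178, 175, 187 and 168 in the antibody-treated libraries. Antibody-treated libraries lay below all others. Amph fell 1.14-fold against injured tissue (log2 fold change -0.19, SE 0.06, edgeR adjusted p = 0.0273), a call that was lost without injured replicates 3 or 4 or antibody-treated replicates 1 or 2 (largest edgeR adjusted p = 0.0984, log2 fold changes -0.20 to -0.15). Against uninjured tissue it did not pass the test (log2 fold change -0.16, SE 0.06, edgeR adjusted p = 0.0823). Synj1, the phosphatase synaptojanin, lay between 236 and 376 normalised CPM with log2 fold changes of -0.29, -0.17 and 0.12 (edgeR adjusted p = 0.0829, 0.342 and 0.502), and passed the test in none.

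**Figure D3:**
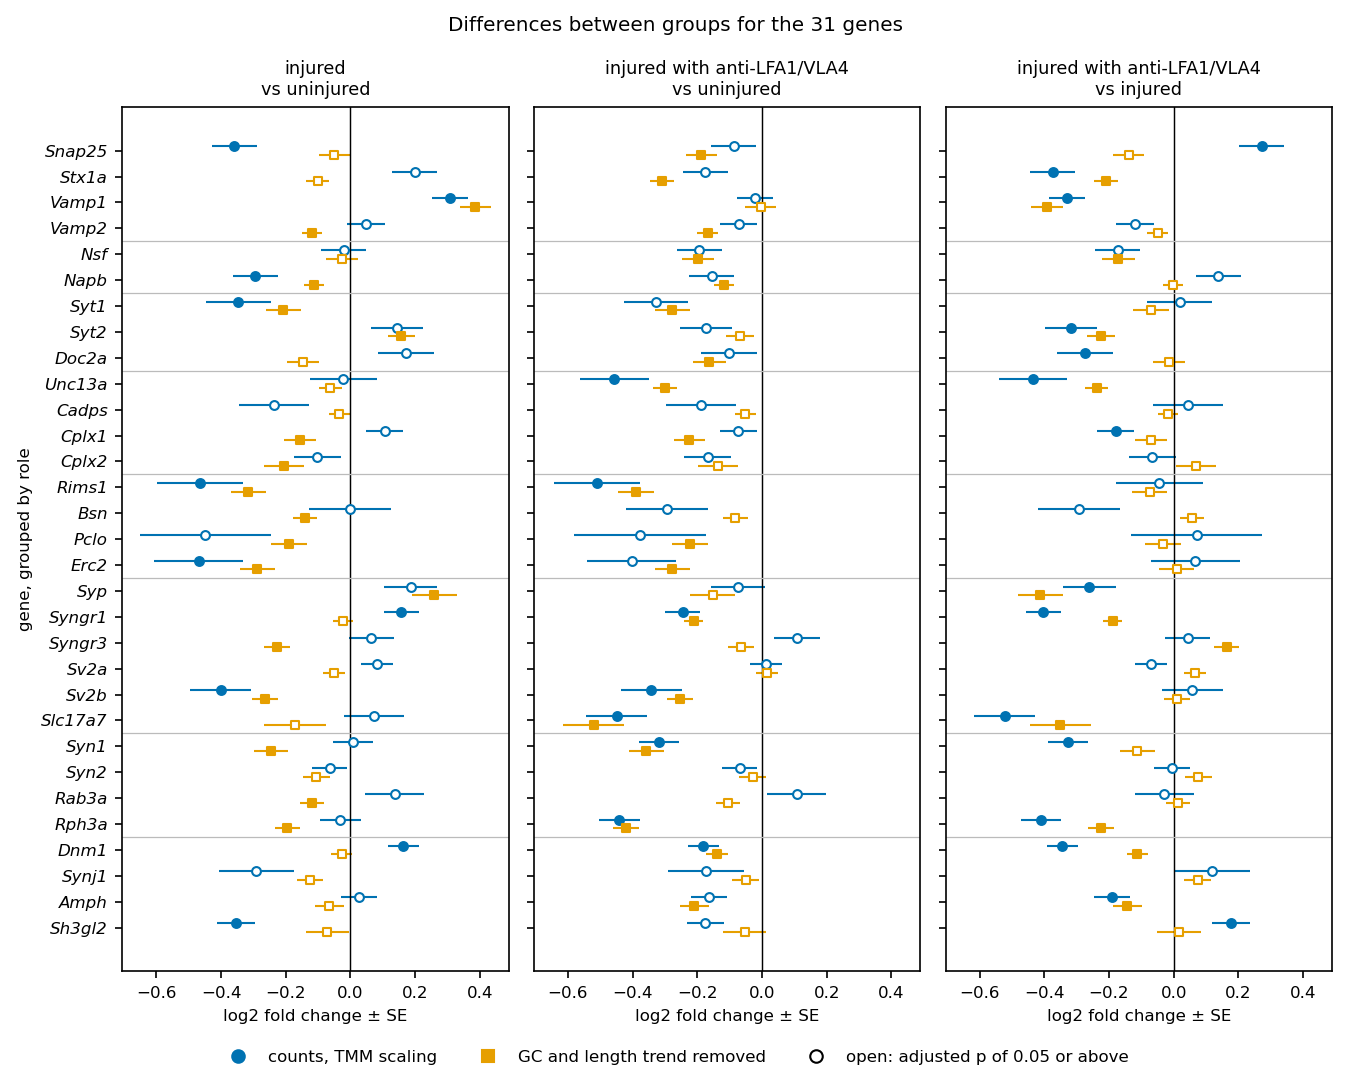
Log2 fold change ± SE of each of the 31 genes in the 3 comparisons, from counts with TMM scaling (blue circles) and with each library's trend on GC content and length removed (orange squares), filled where the edgeR adjusted p was under 0.05. In antibody-treated against uninjured tissue 28 of 31 circles lie below 0, and Snap25 in injured tissue moves from -0.36 to -0.05 when the trend is removed.

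Of the members, 4 were wholly higher (every library of 1 group above every library of the other) and 7 wholly lower in injured against uninjured tissue, where 17.4% and 12.9% of all tested genes did so. No member was wholly higher and 11 were wholly lower in antibody-treated against uninjured tissue, where the shares of all genes were 9.01% and 6.56%. In antibody-treated against injured tissue 1 was higher and 12 were lower, beside 10.6% and 11.4% of all genes. No test of these shares against those of all genes was made.

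Members with related proteins were also compared by the ratio of their TPM within each library, which does not depend on how libraries are scaled but can still move with GC content, which differs within pairs (46.8% for Sv2b and 54.2% for Sv2a, for example). An exact two-sided permutation test was run on 7 pairs in 3 comparisons, 21 tests in all; with 4 libraries against 4 the smallest p is 0.0286, which gave an adjusted p = 0.0462. The 13 ratio differences that passed all had this smallest p, so their adjusted p depended on how many tests reached it. A call could thus be lost without 1 library because other pairs no longer reached that p. Each of the 13 lost its call in 4 to 7 of the 8 fits without 1 library (largest permutation adjusted p = 0.139), and kept its direction in all of them. The ratio Vamp1/Vamp2 was 0.104, 0.1003, 0.0963 and 0.1004 in the uninjured, 0.131, 0.113, 0.117 and 0.121 in the injured and 0.111, 0.102, 0.1104 and 0.0928 in the antibody-treated libraries. It rose in injured against uninjured tissue (log2 difference 0.26) and fell in antibody-treated against injured tissue (-0.21), both at that smallest permutation p. The ratio Syt2/Syt1 was 0.0306, 0.0341, 0.0314 and 0.0378 in the uninjured, 0.0452, 0.0454, 0.0473 and 0.0495 in the injured and 0.0356, 0.0359, 0.0359 and 0.04200 in the antibody-treated libraries. All injured values lay above all other values, with log2 differences of 0.49 against uninjured and -0.33 for antibody-treated against injured tissue, again at the smallest exact p.

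Within the vesicle glycoproteins, Sv2b/Sv2a was 0.879, 0.7605, 0.708 and 0.7503 in the uninjured, 0.597, 0.562, 0.577 and 0.482 in the injured and 0.593, 0.622, 0.693 and 0.514 in the antibody-treated libraries. It fell in injured (log2 difference -0.48) and in antibody-treated tissue (-0.36), both against uninjured tissue and both at the smallest exact p. Syn2/Syn1 was 0.638, 0.572, 0.584 and 0.618 in the uninjured, 0.6101, 0.578, 0.5804 and 0.527 in the injured and 0.711, 0.736, 0.694 and 0.725 in the antibody-treated libraries. This ratio rose in antibody-treated tissue by 0.25 against uninjured and 0.32 against injured tissue. Syngr3/Syngr1 was 0.639, 0.705, 0.731 and 0.661 in the uninjured, 0.6304, 0.698, 0.633 and 0.609 in the injured and 0.901, 0.8704, 0.756 and 0.976 in the antibody-treated libraries, and rose in antibody-treated tissue by 0.35 and 0.44 on the log2 scale, with the same exact adjusted p as above. Cplx1/Cplx2 rose in injured against uninjured tissue (log2 difference 0.21), and its antibody-treated values of 1.12 to 1.46 overlapped both groups.

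The ratio of the vesicular glutamate transporters had the largest differences in both antibody comparisons. Slc17a7 (VGLUT1) is typical of cortical and hippocampal neurons and Slc17a6 (VGLUT2), which is not a member, of thalamic and brainstem neurons. Slc17a7/Slc17a6 was 52.4, 57.7, 59.1 and 51.2 in the uninjured, 34.6, 49.1, 41.5 and 53.3 in the injured and 28.6, 24.8, 25.7 and 22.4 in the antibody-treated libraries. The antibody-treated values lay below all others. The ratio was 2.18-fold lower than in uninjured tissue (log2 difference -1.12) and 1.74-fold lower than in injured tissue (-0.80), both with an exact adjusted p = 0.0462. The difference between injured and uninjured tissue was -0.32 (exact p = 0.0857, adjusted p = 0.129). Slc17a6 itself stood at 33.5, 27.96, 27.99 and 28.4 normalised CPM in the uninjured libraries, 45.9, 34.3, 38.1 and 36.7 in the injured and 44.8, 46.5, 50.6 and 45.1 in the antibody-treated libraries. It rose in injured tissue (log2 fold change 0.39, SE 0.09, edgeR adjusted p = 0.0141) and in antibody-treated tissue (log2 fold change 0.67, SE 0.09, edgeR adjusted p = 0.000534), both against uninjured tissue. Thalamic markers rose in 8 of 12 and in 7 of 12 genes in the same comparisons, and whether this carries the change in the ratio was not tested.

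**Figure D4:**
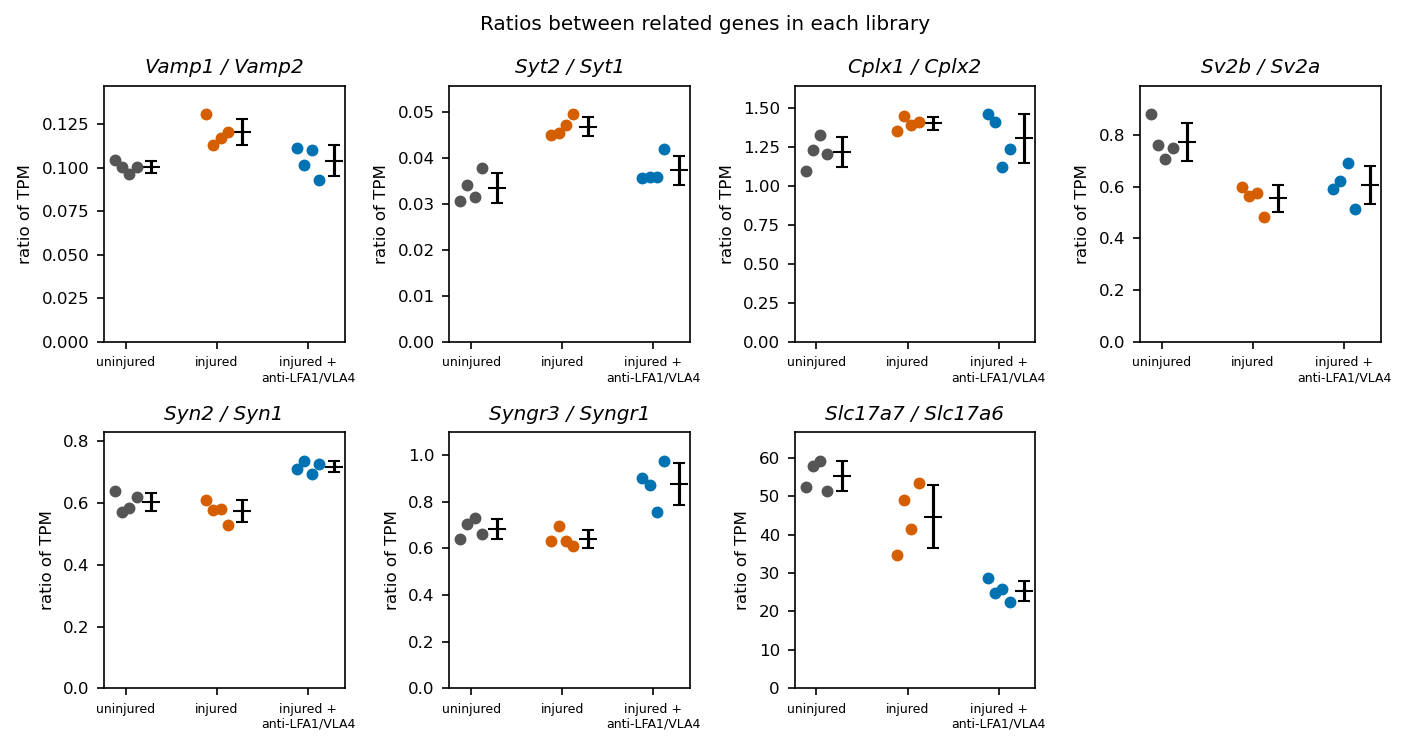
Ratio of TPM between related genes within each library (points) for 7 pairs by group, with the mean and SD of 4 libraries (bars) and axes that start at 0. Slc17a7/Slc17a6 falls from 51.2 to 59.1 in uninjured libraries to 22.4 to 28.6 in antibody-treated libraries, and Syt2/Syt1 is highest in the 4 injured libraries.

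Fold changes moved with the GC content of the transcript, in the members as in all genes. Across all 14771 genes the log2 fold change of injured against uninjured tissue had Pearson's r = 0.58 and Spearman's rho = 0.68 with GC content, and across the 31 members r = 0.68 and rho = 0.60. In antibody-treated against injured tissue the values were r = -0.39 and rho = -0.60 for all genes and r = -0.71 and rho = -0.72 for the members. For antibody-treated against uninjured tissue they were r = 0.08 and rho = 0.15, and 0.05 and 0.00. That comparison moved with log2 exon length instead, with r = -0.33 and rho = -0.50 for all genes and -0.58 and -0.59 for the members. With length, injured against uninjured tissue had r = -0.32 and rho = -0.38, and -0.50 and -0.56 for the members. Antibody-treated against injured tissue had r = -0.09 and rho = -0.06, and 0.10 and 0.16 for the members. These are descriptions across genes of the same libraries, and genes are not independent replicates. Of the 13 members with a GC content below 50%, 1 rose and 7 fell in injured tissue (median log2 fold change -0.35, and -0.16 over all such genes). Of the 18 members at or above 50%, 2 rose and none fell there (0.07, and 0.18 over all such genes). In antibody-treated against injured tissue 2 rose and 2 fell of the 13 (median 0.06, and 0.15 over all such genes) and 11 fell of the 18 (-0.28, and -0.13). Against uninjured tissue 2 fell of the 13 (-0.19, and -0.02 over all such genes) and 6 of the 18 (-0.17, and 0.05). The share of all genes that rose or fell was not counted by GC class. These counts of members therefore cannot be set against genes of like GC content.

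**Figure D5:**
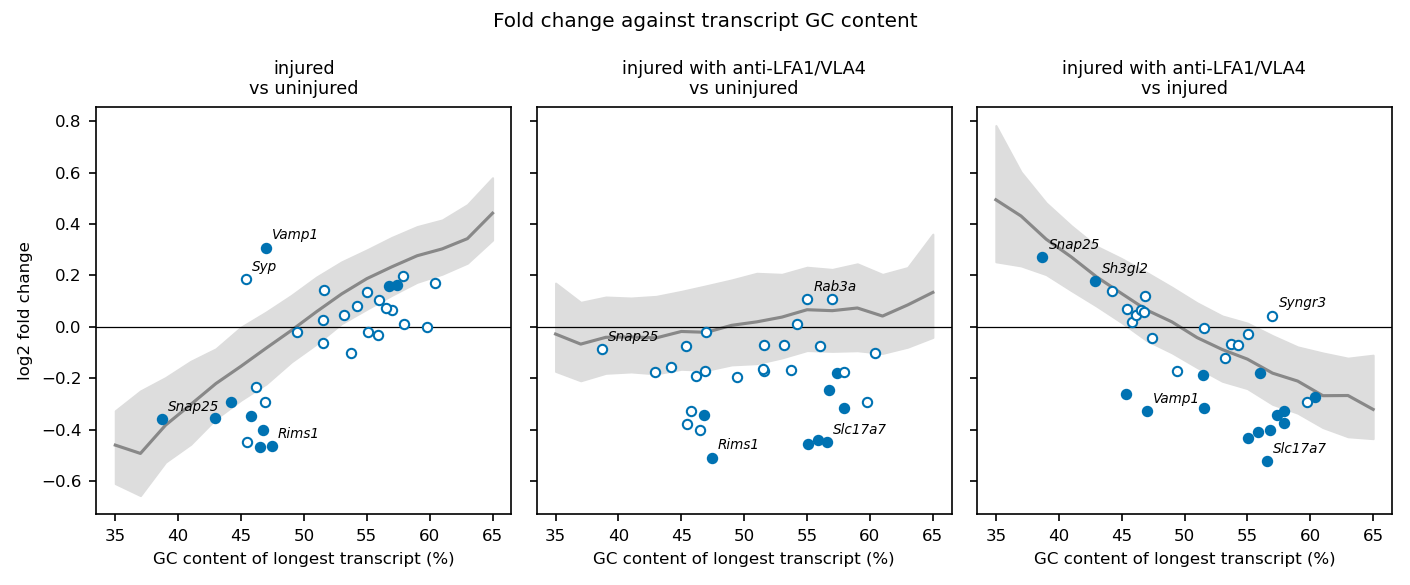
Log2 fold change of each member (circles, filled where the edgeR adjusted p was under 0.05) against the GC content of its longest transcript in percent, with the median (line) and quartiles (band) of all 14771 tested genes. The band rises with GC content in injured against uninjured and falls in antibody-treated against injured tissue, and Snap25 has the lowest GC content of the members, 38.7%.

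With the trend on GC content and length removed from each library, 3 members rose (Vamp1, Syt2 and Syp) and 14 fell in injured against uninjured tissue, where 5.86% and 8.90% of all genes did. Of the calls given above Vamp1 was kept among the higher and Syt1, Sv2b, Rims1, Napb and Erc2 among the lower. Newly called lower were Vamp2, Syn1, Cplx1, Cplx2, Bsn, Pclo, Rab3a, Syngr3 and Rph3a. In antibody-treated against uninjured tissue none rose and 19 fell, where 8.25% and 11.8% of all genes did, and all 8 earlier calls were kept. The calls gained there were Syt1, Snap25, Stx1a, Vamp2, Cplx1, Pclo, Nsf, Napb, Amph, Doc2a and Erc2, all lower. In antibody-treated against injured tissue 1 rose (Syngr3) and 11 fell, where 8.96% and 9.38% of all genes did. Of the 13 lower calls 10 were kept, and Nsf was newly called lower. The median log2 fold change of the members was then -0.12, -0.17 and -0.07 in the 3 comparisons, and -0.01, -0.02 and -0.01 for all genes. Calls that held both here and without any single library were Vamp1 higher and Sv2b and Napb lower in injured tissue. Between antibody-treated and uninjured tissue they were Syn1, Slc17a7, Syngr1 and Rph3a, and against injured tissue Stx1a, Vamp1, Dnm1, Slc17a7, Syngr1 and Rph3a, all lower.

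The TPM scale gave another split, and there the median of all genes itself shifted by 0.17 in injured against uninjured tissue and by -0.14 in antibody-treated against injured tissue on the log2(TPM + 1) scale. With limma on that scale 11 members rose and none fell in injured tissue, where 34.5% of all genes rose and 2.38% fell. None rose and 3 fell in antibody-treated against uninjured tissue (6.44% and 0.967% of all genes), and none rose and 17 fell against injured tissue (4.47% and 25.2% of all genes). Relative to the median of all genes the split was 2 higher and 7 lower in injured tissue (11.7% and 12.9% of all genes). It was then 0 and 8 in antibody-treated against uninjured tissue (5.83% and 3.58%) and 1 and 13 against injured tissue (11.8% and 11.4%).

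Reads over introns, which can come from unspliced RNA, were tested in 11279 genes. Their origin in these libraries was not tested. No member passed the test in either comparison with uninjured tissue, where 0.142% and 0.346% of genes rose and fell in injured and 0.470% and 0.204% in antibody-treated tissue. In these comparisons 4 and 8 members had an unadjusted edgeR p under 0.05. The percentages are for the adjusted p, and the share of all genes under that unadjusted p is not given here, so the counts cannot be set against it. No other tool was run on introns. In antibody-treated against injured tissue 4 members rose (Rims1, Pclo, Nsf and Amph) and 5 fell (Vamp2, Syp, Sv2a, Dnm1 and Slc17a7), where 5.40% of genes rose and 4.10% fell. Slc17a7 had 253, 244, 236 and 205 in the uninjured libraries, 233, 249, 296 and 362 in the injured and 208, 191, 203 and 119.7 in the antibody-treated libraries in normalised intron CPM. Its intron reads fell in the same direction as its exon reads (log2 fold change -0.65, SE 0.16, edgeR adjusted p = 0.0182), as did those of Dnm1 (-0.54) and Syp (-0.43). The intron reads of Rims1 (0.61), Nsf (0.45) and Amph (0.42) rose while their exon log2 fold changes were -0.04, -0.17 and -0.19.

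Of 83 other genes of vesicle release, listed apart from the members, 81 were tested. In injured tissue 15 rose and 17 fell, beside 11.9% and 11.0% of all genes. The 5 of smallest p that rose were Apba2 (0.28), Ppfia4 (0.27), Dnm2 (0.30), Rab3d (0.37) and Syngr2 (0.51), in log2 fold change. Those that fell were Synpr, a synaptophysin relative (-0.57), the clathrin adaptor Picalm (-0.40), the proton pump subunit Atp6ap2 (-0.38), Snap29 (-0.34) and Syt6 (-0.46). Slc32a1, the vesicular GABA transporter, rose by 0.25 and Snap91, a clathrin adaptor, fell (log2 fold change -0.20, SE 0.07, edgeR adjusted p = 0.04799).

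In antibody-treated against uninjured tissue 3 of these 81 genes rose and 12 fell, beside 6.30% and 3.22% of all genes. Those that rose were Slc17a6 (0.67), Syngr2 (0.64) and Slc18a2, the vesicular monoamine transporter (1.24), whose level was at most 1.85 normalised CPM. Leading falls were Syt16 (-0.38), Ppfia3 (-0.30), Apba2 (-0.23), Apba1 (-0.41) and Cadps2 (-0.36). Snap91 (-0.07) and Slc32a1 (-0.07) did not pass the test. Against injured tissue 9 rose and 24 fell, beside 10.9% and 10.7% of all genes. The leading rises were Atp6ap2 (0.46), Picalm (0.48), Synpr (0.50), Slc18a2 (1.15) and Vamp4 (0.34). Leading falls were Apba2 (-0.51), Ppfia3 (-0.54), the proton pump subunit Atp6v0a1 (-0.39), Ppfia4 (-0.32) and Prrt2 (-0.27), and Slc32a1 (-0.32) fell too. Slc17a6 (log2 fold change 0.27, SE 0.09, edgeR adjusted p = 0.0535) and Snap91 (0.12) did not pass the test there. The median log2 fold change of the 81 genes was -0.02, -0.10 and -0.08 in the 3 comparisons.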

How the data were processed

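Each library has a deposited table of 25749 genes. Per the file headers these hold read counts over exons and introns, TPM and RPKM made by the authors. RPKM values, as deposited, were not used. Trimmomatic 0.39, FastQC 0.11.8, CASAVA 1.8.2 and the genome build GRCm38 are listed, without their roles, by the submitters' processing notes. For the aligner, the counter and the use of strand, the answer is not given in the sources used here. Total exon counts were tested with edgeR 4.0.16 in R 4.3.3 (quasi-likelihood test, filterByExpr, TMM scaling, all 12 libraries, group as the only term, 9 residual degrees of freedom), with Benjamini-Hochberg adjustment over 14771 genes at 0.05. SE is the log2 fold change divided by the root of F. Ratios used the deposited TPM and exact two-sided permutation tests, adjusted over 21 tests. GC content came from the longest transcript in GENCODE M21, which holds all 25749 gene identifiers, and exon length was the deposited value. The smooth trend of both in each library was removed with mgcv 1.9.3. The fit was tested on simulated counts. Alternatives were DESeq2 1.42.0, limma 3.58.1 (voom on counts, trend on TPM), other filters and scalings, unique reads, intron reads, a replicate term and leaving out libraries. A median-centred TPM fit and a fit without mitochondrial genes were added after the data were seen. Values per library are given for members that passed the test in any comparison or were among the 5 largest changes in one. Of the other release genes, the 5 of smallest p in each direction and Slc17a6, Slc32a1 and Snap91 are named, and some genes of that list are not reported here. The members and lists were chosen with earlier results of these data known.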

Additional observations from a re-analysis of the deposited data

Results flagged for a closer look

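In 4 of 93 sets of 4 libraries (31 genes in 3 groups) 1 library stood far from the other 3, and chance flags about 1 in 20 such sets. Syt1 was at 1771.1 normalised CPM in uninjured replicate 1, where the other uninjured libraries lay between 1433 and 1462. Sv2a was at 513.7 in uninjured replicate 4, beside 489.6 to 493.7 in the others. Syngr1 was at 652.6 in injured replicate 4, beside 579.1 to 582.6. Rph3a was at 364.2 in antibody-treated replicate 3, beside 313.6 to 322. The falls of Syngr1 and Rph3a in antibody-treated tissue held without these libraries, and that of Syt1 in injured tissue was lost without uninjured replicate 1.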

How the results depend on the processing

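No member rose in antibody-treated against uninjured tissue under any alternative run. The 3 members higher in injured than uninjured tissue (11.9% of all genes) became 11 with each of the 3 TPM fits (34.5%, 34.4% and, unfiltered, 21.9%). They became 8 with library size alone (21.4%) and 1 without a filter (5.92%). They became 1 without the 2 libraries at the ends of the first component (8.69%) and 0 on intron reads (0.142%). The 7 lower (11.0% of all genes) became 14 after removing the GC and length trend (8.90%). They became 0 on TPM (2.38%, 2.36% and, unfiltered, 1.15%) and on intron reads (0.346%). The 8 lower in antibody-treated than uninjured tissue (3.22% of all genes) became 19 with the trend removed (11.8%) and 14 with the DESeq2 Wald test (5.98%). They became 5 with library size alone (1.36%), with only the compared groups (1.60%) and without the 2 end libraries (1.65%). They became 3 with TPM at either pseudocount (0.967% and 0.946%), 1 with unfiltered TPM (0.633%) and 0 on introns (0.204%). The 2 higher in antibody-treated than injured tissue (10.9% of all genes) became 1 with the trend removed (8.96%) or with centred TPM (11.8%). They also became 1 with library size alone (9.38%) or no filter (7.86%). They became 0 on TPM (3.6% to 4.47%) and with only the compared groups (7.25%), and 4 on introns (5.4%). The 13 lower (10.7% of all genes) became 5 on introns (4.1%), 9 without a filter (5.76%) and 9 with only the compared groups (7.34%). They became 11 with the trend removed (9.38%) and 15 to 17 on TPM (15.4% to 25.2%). Leaving out 1 library gave 1 to 4 higher and 4 to 9 lower in injured tissue. The shares of all genes there ran from 4.61% to 16.3% higher and from 3.9% to 16.2% lower. In antibody-treated against uninjured tissue 4 to 18 fell, beside 1.43% to 12.9% of all genes. The 18 came without antibody-treated replicate 3, where the share of all genes that fell was 12.9% in place of 3.22%. Against injured tissue 1 to 2 rose and 7 to 13 fell. The 7 came without injured replicate 4, where 5.63% of all genes fell in place of 10.7%. The shares without other libraries are not given for that comparison. With a replicate block the counts were 1 higher in injured (8.65% of all genes) and 5 lower in antibody-treated against uninjured tissue (1.44%). Against injured tissue they were 1 higher (8.36%) and 9 lower (7.6%), where Syp, Cplx1, Amph and Doc2a lost their calls. Whether replicate numbers pair the libraries is not known. Correlations of same-numbered libraries, taken on deviations from the group means, ran from -0.532 to 0.434 and 2 of 12 were above 0.1, which cannot settle it. Where a value was called in at least 1 of the fits compared, the sign turned with the trend removed for Vamp2 (-0.12), Syn1 (-0.25), Cplx1 (-0.16), Dnm1 (-0.0274), Rab3a (-0.12), Syngr1 (-0.0230) and Syngr3 (-0.23) in injured tissue, and Snap25 (-0.14) in antibody-treated against injured tissue. On introns, under the same condition, it turned for Syt1 (0.0447) and Erc2 (0.0902) in injured tissue, for Sv2b (0.0417), Rims1 (0.36) and Syngr1 (0.14) in antibody-treated against uninjured tissue, and for Rims1 (0.61), Nsf (0.45) and Amph (0.42) against injured tissue. Of the values for single members under the alternatives, 214 lost the call, 94 gained one, 16 turned sign with a call in either fit, and 2466 stayed on the same side of the threshold. The sign turned in 155 of all 2790 values, 139 of them called in neither fit. With the trend removed 24 turned: 12 in injured tissue, 2 in antibody-treated against uninjured and 10 against injured tissue. On introns 31 turned: 9, 16 and 6, among them Syt1 (0.63), Pclo (0.54), Nsf (0.497), Erc2 (0.45) and Cplx2 (0.38) in antibody-treated against uninjured tissue. Of the ratio tests, 72 lost the call, all with a library left out, and 1 gained one. The cause of these changes was not tested. No 2 libraries were alike within sampling noise (chi-square per degree of freedom at least 2.89).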
